A study of Mus musculus with 6 samples.

Results

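Pseudogenes are gene copies or relics that have lost the ability to code for the ancestral protein, and a part of them is still transcribed into RNA. Of the transcribed pseudogenes named in the GENCODE mouse annotation, 113 were chosen by their abundance in these mouse kidneys. Each had a gene type that begins with "transcribed" and ends with "pseudogene", and a total of 100 counts or more over the 6 libraries. They came from 1971 transcribed pseudogenes present among the 56691 genes of the count files, of which a further 640 had 1 to 99 counts and 1218 had 0 counts. The threshold used the total over both groups and not the difference between them.

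The libraries were made from total kidney RNA of C57BL/6 male mice, 9 weeks old at the first injection, with 1 library per mouse and no genetic modification named in the labels or methods. The control group held 3 mice given saline. The cisplatin group, spelled Ciaplatin in the sample titles, held 3 mice given 4 intraperitoneal injections of cisplatin at 8 mg per kg, a DNA-damaging chemotherapy agent used here to induce chronic kidney disease, with the kidneys taken at week 7. Each library is a whole kidney mixture of cell types, and in such bulk samples fewer cells of a type and less RNA per cell cannot be told apart.

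Transcribed pseudogenes arise in 3 ways, and the annotation keeps them apart. Processed pseudogenes are copies of a spliced messenger RNA that was reverse transcribed and inserted elsewhere in the genome, so they usually lack introns and the promoter of the original gene. Unprocessed pseudogenes are duplicated genes that kept their exons and introns, and unitary pseudogenes are genes that decayed without leaving an intact copy. Among the 113 there were 53 processed, 52 unprocessed and 8 unitary pseudogenes. Because a young copy differs from its gene of origin at few bases, a sequencing read from one can fit the other, and the counts of the 2 cannot always be separated.

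The 7 pairs of sequences below show how far the copies had diverged from the coding genes nearest to them in sequence. The members shown are those on which the results turn, namely the most abundant one, the 2 that moved most among copies with a recognizable origin, a member of an interferon-inducible family, and 3 close copies. Sequences were read from the GRCm39 genome in the direction of transcription, and capitals mark every base that differs between the 2 aligned stretches of a pair. For pairs at 98% identity or more the stretch with the most differences is printed, and for the others a stretch with the pair's typical identity.

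The most abundant member, Gm6300, is a diverged relative of Slc7a12, a member of the SLC7 family of amino acid transporters. The alignment ran over 1382 columns of the coding sequence at 75.5% identity with 14 gap columns, and the triplet aligned to codon 358 of 465 is a stop. This identity lies below the 80% set for naming a closest coding gene, so the relation was singled out after the values were seen. The 120 bases shown differ at 29 positions.
Gm6300, chr3:14438074-14438193, plus strand: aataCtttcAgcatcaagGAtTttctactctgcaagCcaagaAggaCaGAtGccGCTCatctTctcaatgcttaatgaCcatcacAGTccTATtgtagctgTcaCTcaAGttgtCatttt
Slc7a12, chr3:14564209-14564328, plus strand: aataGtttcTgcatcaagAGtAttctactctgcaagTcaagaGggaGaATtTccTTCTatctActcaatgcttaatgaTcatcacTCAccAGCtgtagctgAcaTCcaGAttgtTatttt

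Gm9732, on chromosome 14, is a partial duplicate of 1700049E17Rik1, with 99.1% identity over 329 aligned bases. It matched the gene 1700049E17Rik2 equally well over the same number of bases. The 120 bases shown hold 3 differences.
Gm9732, chr14:43158136-43158255, plus strand: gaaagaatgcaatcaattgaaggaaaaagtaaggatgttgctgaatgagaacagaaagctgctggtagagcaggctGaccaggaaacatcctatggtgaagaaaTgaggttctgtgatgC
1700049E17Rik1, chr14:41749731-41749850, plus strand: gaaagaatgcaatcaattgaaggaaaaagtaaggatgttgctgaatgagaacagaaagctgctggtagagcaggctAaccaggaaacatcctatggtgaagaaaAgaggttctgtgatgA

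Gm21321, on chromosome 10, begins with a processed fragment of Cdk6, a cyclin-dependent kinase of the G1 phase of the cell cycle. The fragment aligned over 235 columns from the start codon onward at 90.2% identity, with 2 stop triplets in the frame of Cdk6, the first at codon 14. The 120 bases shown differ at 12 positions.
Gm21321, chr10:7340652-7340771, minus strand: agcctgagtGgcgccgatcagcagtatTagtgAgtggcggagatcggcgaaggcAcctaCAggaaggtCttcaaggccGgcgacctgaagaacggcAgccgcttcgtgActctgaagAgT
Cdk6, chr5:3394379-3394498, plus strand: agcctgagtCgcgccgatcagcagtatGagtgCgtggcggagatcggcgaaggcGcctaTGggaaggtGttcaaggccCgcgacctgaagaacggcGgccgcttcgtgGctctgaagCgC

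Gvin4 is a copy of Gvin1, which encodes a very large interferon-inducible GTPase. The alignment covered 7290 columns at 91.8% identity, and 3 triplets aligned to codons of Gvin1 were stops, the first at codon 2292 of 2427. The 120 bases shown differ at 10 positions.
Gvin4, chr7:106110489-106110608, minus strand: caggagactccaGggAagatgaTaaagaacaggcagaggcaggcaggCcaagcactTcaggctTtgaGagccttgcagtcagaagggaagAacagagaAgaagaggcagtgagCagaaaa
Gvin1, chr7:105764078-105764197, minus strand: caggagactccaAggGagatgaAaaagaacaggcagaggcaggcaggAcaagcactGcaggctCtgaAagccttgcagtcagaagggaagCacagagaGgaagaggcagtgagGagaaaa

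Gpr137b-ps is a duplicate, on the same chromosome, of Gpr137b, a lysosomal membrane protein. The 2 differed at 5 bases and 1 gap over 1156 columns, an identity of 99.5%. The 120 bases shown hold 2 differences.
Gpr137b-ps, chr13:12634664-12634783, minus strand: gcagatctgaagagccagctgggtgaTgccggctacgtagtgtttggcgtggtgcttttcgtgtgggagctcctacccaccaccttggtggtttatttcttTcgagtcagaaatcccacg
Gpr137b, chr13:13538038-13538157, minus strand: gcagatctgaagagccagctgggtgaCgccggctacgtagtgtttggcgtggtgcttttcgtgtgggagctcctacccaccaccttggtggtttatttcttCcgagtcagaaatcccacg

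Gpx4-ps2 is an intronless copy of Gpx4, the selenium-containing glutathione peroxidase that reduces lipid peroxides. It differed from the coding sequence at 2 bases over 552, and it kept the TGA triplet at codon 73 that Gpx4 reads as selenocysteine. The 120 bases shown include that triplet and hold 1 difference.
Gpx4-ps2, chr10:45751527-45751646, plus strand: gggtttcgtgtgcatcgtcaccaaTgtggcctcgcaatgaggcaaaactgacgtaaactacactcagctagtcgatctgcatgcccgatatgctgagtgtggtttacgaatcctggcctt
Gpx4, chr10:79890534-79890653, plus strand: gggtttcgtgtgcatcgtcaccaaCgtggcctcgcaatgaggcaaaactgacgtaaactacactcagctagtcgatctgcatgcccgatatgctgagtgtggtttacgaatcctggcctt

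Rbm3-ps is an intronless copy of Rbm3, a cold-inducible RNA-binding protein, with 3 differences over the 462 bases of the coding sequence. The 90 bases shown hold 2 of them.
Rbm3-ps, chr1:150141351-150141440, minus strand: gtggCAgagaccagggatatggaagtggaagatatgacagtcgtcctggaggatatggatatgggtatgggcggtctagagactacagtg
Rbm3, chrX:8009901-8009990, minus strand: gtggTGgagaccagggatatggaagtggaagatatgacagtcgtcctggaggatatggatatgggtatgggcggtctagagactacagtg

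Counts and their precision were as follows. Between 21891855 and 26627554 read pairs per library were assigned to genes, and the 113 members took 7857 to 10588 of them, which was 0.0359% to 0.0411% of the gene counts. The median member had a total of 233 counts against 1492 for the median of all 15662 genes tested, so the members were measured less precisely. Their median coefficient of variation was 14.9% among control and 16.7% among cisplatin mice, against 7.78% and 12.6% over all tested genes. The share of read pairs outside any annotated gene lay between 4.63% and 4.86% for control mice and between 6.09% and 9.32% for cisplatin mice. Of 10 proximal tubule marker genes 9 were lower in cisplatin, and the median log2 fold change of the 10 was -0.96. Their summed level, in which the most abundant markers weigh most, fell further. It went from between 29990 and 30242 to between 4126 and 4482 CPM, which are counts scaled to the effective library size. Of 7 macrophage markers 6 were higher, with sums of 72.7 to 88.8 CPM in control and 213 to 251 CPM in cisplatin. Of 4 neutrophil markers 2 could be tested and both were higher, with sums of 1.81 to 1.95 CPM in control and 3.20 to 3.80 CPM in cisplatin, and another, Ly6g, had 0 counts in every library. The part of these shifts in the values below was not tested.

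Cisplatin kidneys differed from control kidneys in 45 of the 113 members, all of which passed the low-count filter. By edgeR's quasi-likelihood test with Benjamini-Hochberg adjustment over all 15662 genes, 23 members were lower and 22 were higher at an adjusted p under 0.05. Over all tested genes 22.8% were lower and 24.5% were higher, so the members' shares of 20.4% and 19.5% were near the background and are no result about pseudogenes as a class. On the log2 scale the members had a median change of 0.07, beside 0.05 over all tested genes. Groups did not overlap in 56 members, against 57.8% of all tested genes. Scaling to library totals instead of TMM factors raised the median of all genes to 0.48. It gave 14 members lower and 49 higher, beside 8.78% and 54.3% of all tested genes. Leaving out control replicate 2 gave 20 lower and 14 higher, beside 18.4% and 19.0% of the 16189 genes tested. DESeq2 gave 20 and 12, beside 11.6% and 9.63% of 30146 genes, a set that the low-count filter had not cut. With library totals, 14 of the 23 falls and 22 of the 22 rises were still called and none changed sign.

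Called members made up 55.8% of the unprocessed, 26.4% of the processed and 25% of the unitary members, beside 47.4% of all tested genes. Of the 52 unprocessed members 16 were lower and 13 higher. Of the 53 processed members 6 were lower and 8 higher, and of the 8 unitary members 1 was lower and 1 higher. These shares were not tested against each other. Median totals were 281, 220 and 194 counts in the same order, and their part in the shares was not tested. For comparison at the same minimum of 100 counts, 18.4% of 730 long noncoding RNAs were lower and 20.7% higher, and of 12972 protein-coding genes 3248 were lower and 3288 higher. Pseudogenes of the type named plainly processed_pseudogene, without the word transcribed, gave 19 lower and 4 higher of 104. Those named plainly unprocessed_pseudogene gave 7 lower and 0 higher of only 8.

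**Figure D1:**
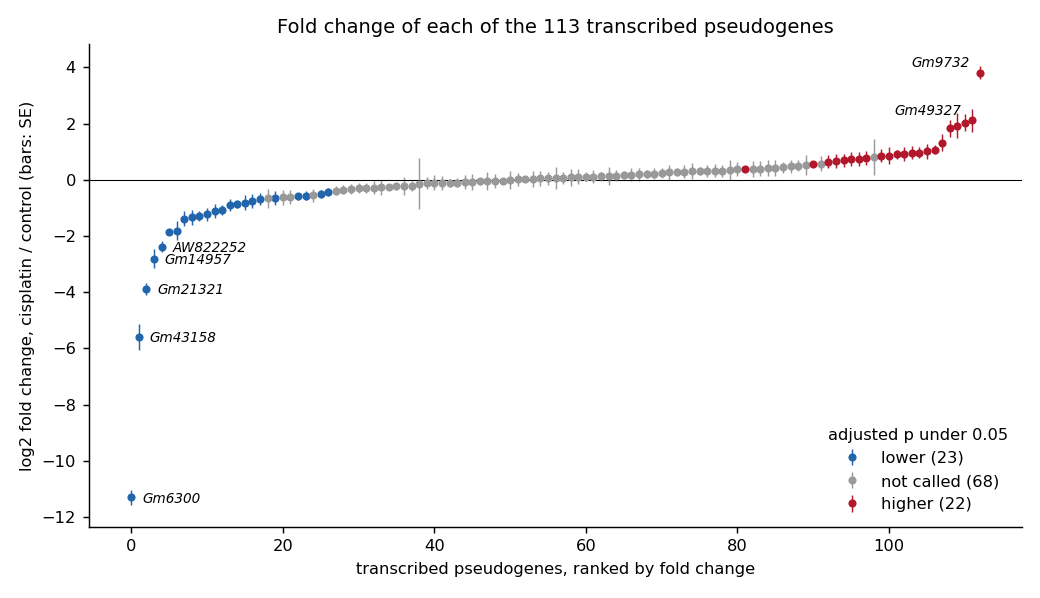
Log2 fold change (cisplatin over control) of each of the 113 transcribed pseudogenes, ranked from lowest to highest, with its standard error as a bar; blue points were lower and red points higher at an adjusted p under 0.05. Most members lie between -1 and 1, while Gm6300 stands at -11.30 and Gm9732 at 3.82.

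The summed level of the members was lower in cisplatin kidneys, and a single pseudogene carried the greater part of the difference. The sum was 445, 453 and 463 CPM in the control mice and 327, 316 and 343 CPM in the cisplatin mice. The means were 454 ± 8.90 and 329 ± 13.5 CPM (SD, n = 3 each), and the groups did not overlap (exact permutation test, two-sided, p = 0.1, the smallest that 3 against 3 allows). Without Gm6300 the means were 379 ± 9.71 and 329 ± 13.5 CPM, still without overlap. On library totals the sums were 391 ± 6.13 and 381 ± 27.4 CPM and overlapped (exact permutation test p = 0.6), so this fall depended on the scaling.

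Gm6300 went from the most abundant transcribed pseudogene of the control kidney to almost no reads in the cisplatin kidney. It occupies chr3:14428177-14442647 on the plus strand with 4 exons and 1498 exonic bases. Its counts were 1652, 1670 and 1517 in the control mice and 2, 0 and 0 in the cisplatin mice. Every control mouse lay far above every cisplatin mouse, and none of the other tested genes among the 15662 had a lower log2 fold change under TMM scaling. In CPM the control mean was 74.6 ± 6.11 and the cisplatin mean 0.0230 ± 0.0398 (SD, n = 3). Summed over mice, 4839 counts stood against 2, a level 3039-fold lower with an exact 95% interval of 841 to 25105 that covers counting error only. The fitted log2 fold change was -11.30 (SE 0.265, adjusted p = 2.34e-09 by edgeR). All of its 100-base exonic windows occur once in the genome, and so none of them is shared with another copy.

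Slc7a12, the coding gene most like Gm6300 and also the nearest coding gene on the chromosome, moved the opposite way. It lies 103110 bases downstream on the same strand, at chr3:14545757-14570890, with the same number of 4 exon blocks. Its counts were 13, 59 and 48 in the control mice and 2217, 1881 and 1872 in the cisplatin mice. The mean rose from 1.91 ± 1.21 to 73.7 ± 9.60 CPM (log2 fold change 5.30, SE 0.317, adjusted p = 5.68e-07 by edgeR). Per kilobase of exon, the level of Gm6300 in control kidneys was 49.8 CPM and that of Slc7a12 in cisplatin kidneys 42.3 CPM. The pseudogene was thus high in all control mice and the coding gene in all cisplatin mice, at levels of similar size.

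**Figure D2:**
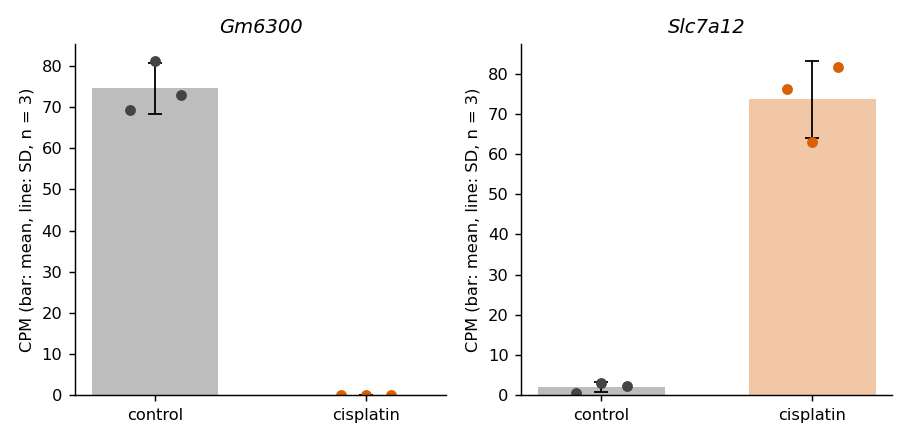
CPM of the pseudogene Gm6300 and of the coding gene Slc7a12 in each library (points), with the group mean (bar) and SD (line) for 3 control and 3 cisplatin mice. Gm6300 averaged 74.6 CPM in control and 0.0230 CPM in cisplatin, and Slc7a12 averaged 1.91 and 73.7 CPM.

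Of the other 9 largest falls, that of Gpr137b-ps, the second most abundant member, is described with its coding gene below. Gm43158, at chr3:121918755-122021019 on the minus strand, has its best coding match in a 134-base stretch of Adh1, the liver and kidney alcohol dehydrogenase. Its counts were 51, 36 and 44 in control and 2, 0 and 1 in cisplatin mice. The summed counts of 131 and 3 give a level 54.9-fold lower (exact 95% interval 18.4 to 269, counting error only; log2 fold change -5.59, adjusted p = 4.48e-06 by edgeR). Adh1 itself fell by 2.14 on the log2 scale. The gene span of Gm43158 crosses that of Abca4 without sharing an exon on either strand.

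Gm21321, the Cdk6 fragment shown above, fell in every cisplatin mouse while Cdk6 did not pass the test. Its counts were 110, 86 and 102 in control and 8, 9 and 8 in cisplatin mice. The mean dropped from 4.57 ± 0.361 to 0.309 ± 0.0373 CPM (log2 fold change -3.88, SE 0.213, adjusted p = 3.14e-07 by edgeR). Cdk6 stood at 0.15 (SE 0.130, adjusted p = 0.366). The log2 ratio of the 2 changed by -4.02 with no overlap between groups (exact permutation test p = 0.1), and all windows of Gm21321 are unique in the genome.

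Gm14957, related to the claudin-like gene Cldn34c1 on the X chromosome, had 32, 29 and 24 counts in control and 4, 8 and 3 in cisplatin mice (log2 fold change -2.80, SE 0.333, adjusted p = 6.41e-05 by edgeR). Cldn34c1 was too low to be tested, with 5 to 14 counts per library. AW822252, a 237-base copy related to Smim10l2a, had 95, 80 and 81 counts in control and 24, 17 and 20 in cisplatin mice (log2 fold change -2.38, SE 0.200, adjusted p = 6.00e-06). Smim10l2a fell as well, by 1.47 on the log2 scale, and the ratio of the pair did not overlap between groups (exact permutation test p = 0.1). Thus AW822252 fell further than the gene it resembles, within the smallest p that 3 against 3 allows.

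Members related to drug- and steroid-metabolizing enzymes were among the 10 largest falls. Gm28023, within the Cyp2d cluster of cytochrome P450 genes on chromosome 15, had 30, 51 and 39 counts in control and 19, 10 and 14 in cisplatin mice (log2 fold change -1.81, SE 0.334). Gm9973, between genes of the Akr1c family of aldo-keto reductases on chromosome 13, had 91, 72 and 67 against 28, 32 and 48 (log2 fold change -1.39, SE 0.263). Gm4956, a 6-exon relative of the Gsta glutathione S-transferases, had 181, 122 and 131 against 90, 61 and 70 (log2 fold change -1.29, SE 0.183). No cisplatin value of these 3 reached the lowest control value, which the choice of the 10 required. The coding neighbour Gsta3, 19947 bases from Gm4956 on the other strand, moved the opposite way and rose by 0.98 (adjusted p = 6.83e-05 by edgeR). Gm5069 completed the 10 with a log2 fold change of -1.34. It aligned almost equally to the glyceraldehyde-3-phosphate dehydrogenase retrogene Gapdhrt2 (95.549%) and to Gapdh itself (95.45%), so the alignment does not settle its origin. Gapdh stood at -0.49 under TMM scaling (adjusted p = 0.00261 by edgeR).

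The largest rise was that of Gm9732, the fragment of 1700049E17Rik1 on chromosome 14. Its counts were 10, 5 and 12 in control and 163, 193 and 129 in cisplatin mice. The mean rose from 0.414 ± 0.167 to 5.90 ± 0.489 CPM, a ratio of 14.3 (log2 fold change 3.82, SE 0.236, adjusted p = 7.25e-07 by edgeR). All cisplatin mice were above all control mice by more than 100 counts. 1700049E17Rik1 itself was listed at 0 counts in every library, and 44.3% of the 100-base windows of Gm9732 occur once in the genome. Pairs that fit several places were not counted, and whether 1700049E17Rik1 lost reads in that way was not tested. Its 0 counts therefore do not show that it was not transcribed.

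Other rises were smaller and came from several gene families. Gm49327, a 3-exon relative of the calcium sensor gene Hpcal1 lying 141455 bases from it, had 6, 5 and 7 counts in control and 19, 48 and 32 in cisplatin mice (log2 fold change 2.11, SE 0.418, adjusted p = 0.00188 by edgeR). Hpcal1 rose by 0.66, and the ratio of the 2 did not overlap between groups (exact permutation test p = 0.1). Or2y7, a relic of an odorant receptor gene, had 6, 9 and 10 against 48, 34 and 31 (log2 fold change 1.83, SE 0.310). Its relative Or2y13 was listed at 0 counts in every library. D630033A02Rik had 13, 6 and 8 against 29, 30 and 26 (log2 fold change 1.32, SE 0.295).

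A further 2 of the 10 largest rises lay close to a coding gene on the same strand, and for neither did the alignment rule give a closest coding gene. C920006O11Rik lies 3937 bases upstream of Gsta4, a glutathione S-transferase that detoxifies lipid peroxidation products, on the same strand. It had 38, 29 and 20 counts in control and 78, 64 and 69 in cisplatin mice (log2 fold change 0.96, SE 0.230, adjusted p = 0.00571 by edgeR), and Gsta4 rose by 3.12 (SE 0.161). BC064078 lies 829 bases from Clec2f, a C-type lectin gene that it resembles, and had 54, 53 and 41 against 136, 135 and 119 (log2 fold change 1.07, SE 0.158). Clec2f had only 1 to 6 counts per library and was not tested. The counts of BC064078 therefore far exceeded those of its coding relative.

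**Figure D3:**
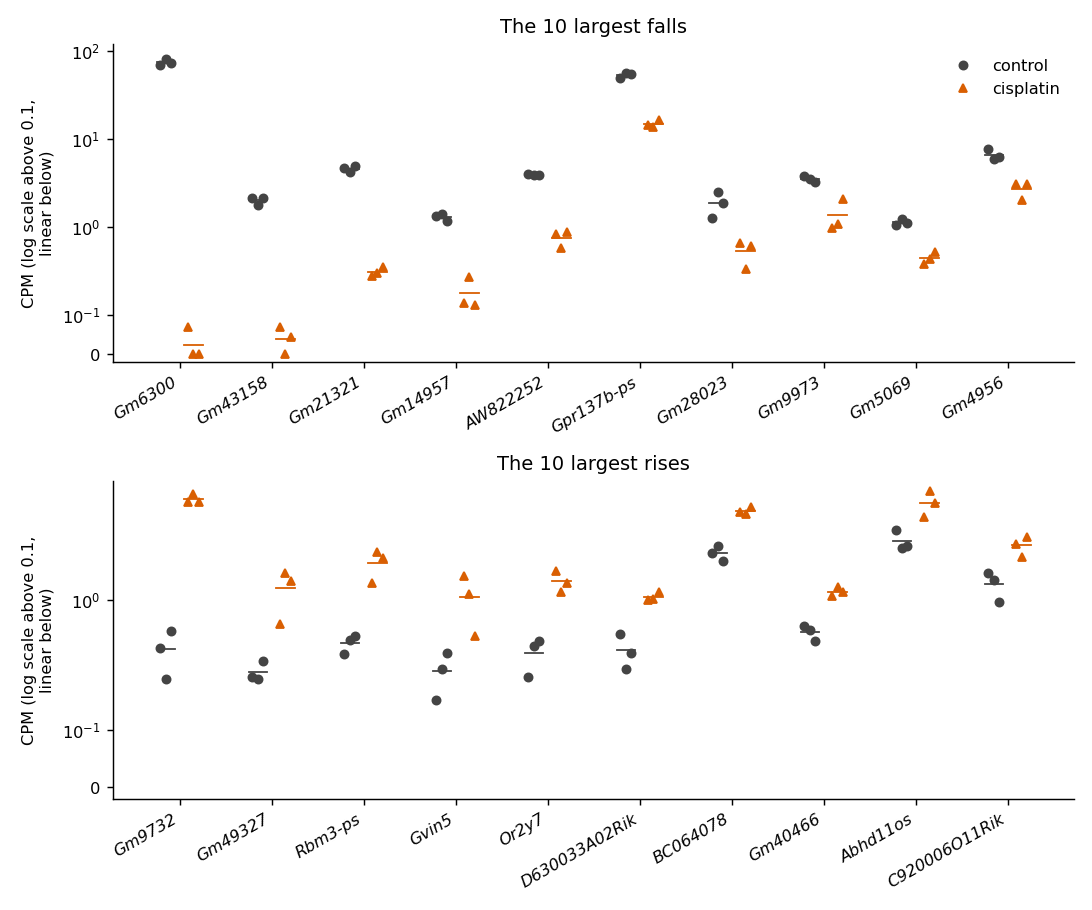
CPM in each library of the 10 members with the largest falls (upper panel) and the 10 with the largest rises (lower panel), control as grey circles and cisplatin as orange triangles, with lines at the group means; the axis is logarithmic above 0.1 CPM and linear below. The 20 genes were chosen among called members without overlap between groups. By that choice the 3 cisplatin mice lie on 1 side of the 3 control mice in each.

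All 20 of these movers kept their call under every scaling and with any single library left out, and 19 of them kept it with DESeq2, the exception being Gm40466 (described below). In 11 of the 20 every 100-base window was unique in the genome.

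The unitary pseudogenes, which have no intact copy to share reads with, were called in 2 of 8 cases, beside 47.4% of all tested genes. Thap6, which keeps the name of a THAP-domain DNA-binding protein, had 167, 174 and 155 counts in control and 141, 152 and 122 in cisplatin mice (log2 fold change -0.59, SE 0.125, adjusted p = 0.00301 by edgeR), a call lost on library totals (-0.16). Abhd11os, which lies wholly within Abhd11 on the opposite strand, had 81, 51 and 54 against 126, 203 and 126 (log2 fold change 0.96, SE 0.200, adjusted p = 0.00249). Abhd11, a hydrolase gene of the mitochondrion, stood at -0.27 under TMM scaling (adjusted p = 0.0453). The strand-specific counts gave 641 pairs to Abhd11os and 838 to the opposite strand of its exons. The other 6, Zfp862-ps, Slc2a4rg-ps, Gm57488, Lrrc70, 2810039B14Rik and Zfp783, were not called, with log2 fold changes from -0.13 to 0.54.

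Close copies and diverged copies differed in how their fold changes compared with those of the coding gene. A closest coding gene, either by the symbol or by the best alignment of at least 200 bases at 80% identity, was found for 86 members, and both partners were tested in 76 pairs. In the 39 pairs at 98% identity or more, the median absolute difference of the log2 fold changes was 0.09, and 30 pairs (76.9%) lay within 0.25. In the 37 pairs under 98% the median difference was 0.63, and 6 pairs (16.2%) lay within 0.25. These 37 pairs held 25 distinct coding genes, so they are not independent, while the close pairs held 39. Among the 37 were 6 pairs of Cdh11 and 4 of Cdk6, none of which lay within 0.25. The split at 98% was chosen after the values were seen. Pearson's r across pairs was 0.89 (Spearman's rho 0.87) for the close and 0.38 (0.39) for the diverged copies, as a description only, since all pairs share the same 6 libraries and the low counts of many members add scatter. Unique windows made up a median of 51.4% of the close and 97.8% of the diverged copies. How many reads of the close copies came from the coding gene was not tested.

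**Figure D4:**
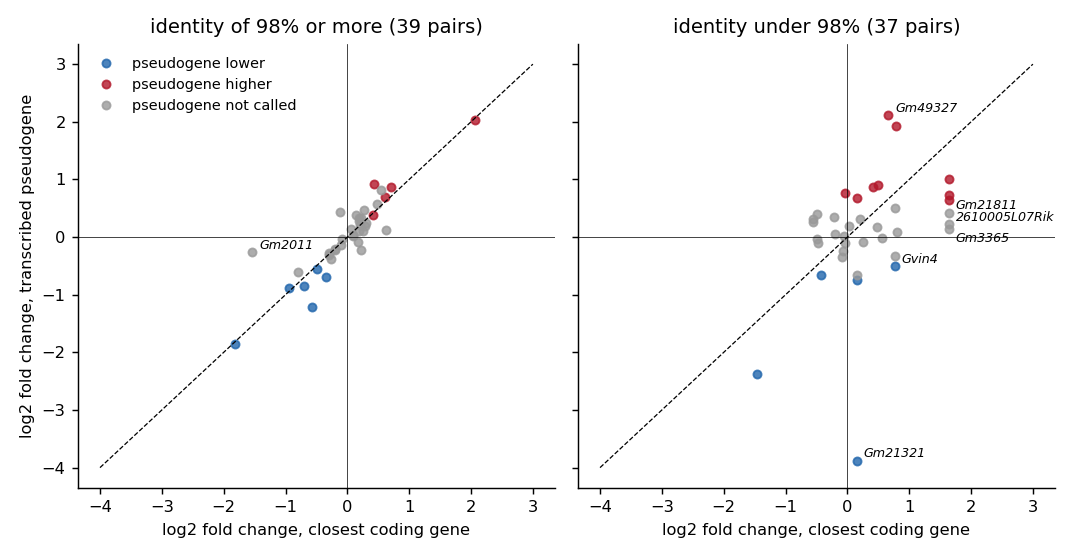
Log2 fold change of each member against that of its closest coding gene, for 39 pairs at 98% identity or more (left) and 37 pairs under 98% (right); the dashed line marks equal values and the colours the call of the pseudogene. Points of the left panel lie along the line with a median distance of 0.09, and those of the right panel scatter with a median distance of 0.63.

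Gpr137b-ps and Gpr137b fell together. The pseudogene had 1163, 1142 and 1141 counts in control and 415, 405 and 378 in cisplatin mice, a mean of 53.1 ± 3.69 against 14.8 ± 1.52 CPM. Its log2 fold change of -1.85 (SE 0.102, adjusted p = 3.18e-07 by edgeR) stood beside -1.82 (SE 0.0919) for Gpr137b. Per exonic base it had 321% to 356% of the level of Gpr137b, whose annotated exons are longer, and these ratios overlapped between groups (exact permutation test p = 0.6). Only 41.7% of its windows are unique.

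Rbm3-ps and Rbm3 rose together. Rbm3-ps had 9, 10 and 11 counts in control and 39, 69 and 48 in cisplatin mice (log2 fold change 2.04, SE 0.301, adjusted p = 0.000282 by edgeR), and Rbm3 changed by 2.06 (SE 0.140). The level of the pseudogene per exonic base was 21.2% to 26.4% of that of Rbm3 in every mouse, with overlap between groups. Gpx4-ps2, the most abundant intronless copy, had 353, 357 and 342 counts in control and 366, 393 and 362 in cisplatin mice. Its log2 fold change of -0.23 (SE 0.115) and that of Gpx4, -0.20 (SE 0.121), did not pass the test.

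Other close copies were called together with their coding gene. Scp2-ps2, a copy of the sterol carrier protein gene, fell by 0.85 beside 0.70 for Scp2 on the log2 scale. Gm21399, a copy of peroxiredoxin Prdx1, fell by 0.89 beside 0.94, although its own call was lost on library totals. Of the 11 members closest to ribosomal protein genes, 3 (27.3%) were higher and 0 lower by edgeR at an adjusted p under 0.05, beside 24.5% and 22.8% of all tested genes. These 3 were Gm10443 (0.38, beside 0.41 for Rps28), Gm10275 (0.86, beside 0.71 for Rpl12) and Rps19-ps6 (0.69, beside 0.60 for Rps19). Of their windows 19.8%, 50.3% and 40.7% are unique, and how many of their reads came from the coding genes was not tested. With DESeq2 the calls of Gm10443 and Rps19-ps6 were lost. That of Gm10443 was also lost without control replicate 1, control replicate 2 or cisplatin replicate 3, and that of Rps19-ps6 without any library other than cisplatin replicate 3. In 9 of the 11 the fold change lay within 0.25 of that of the coding gene. The exceptions were Gm12191, at -0.22 beside 0.23 for Rpl30, and Gm11478, at 0.40 beside -0.49 for Rpl13a, with no overlap of the ratio in the latter pair (exact permutation test p = 0.1). Gm11478 matched Gm45713 as well as Rpl13a, at 97.99% over 597 bases. Rpl13a had 3.75 CPM per kilobase, the lowest among the coding genes of the 11, and how many of its reads were left out for fitting several places was not tested. The median of the 11 was 0.38 on the log2 scale, beside 0.05 for all tested genes.

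Gm28438 is a nuclear copy, on chromosome 1, of the mitochondrial gene mt-Nd3, a subunit of respiratory complex I, with 1 differing base in 345. Its counts were 266, 257 and 276 in control and 142, 149 and 178 in cisplatin mice (log2 fold change -1.08, SE 0.173, adjusted p = 0.000491 by edgeR). mt-Nd3 itself received 3 to 8 counts per library, and 1.22% of the windows of Gm28438 are unique, so the counts of the 2 cannot be told apart.

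In 3 of the 39 pairs at 98% identity or more, the ratio to the coding gene did not overlap between groups. Without any difference, no overlap of 3 against 3 has a probability of 0.1 per pair, so this count is no result about close copies. Gm2011, a 5-exon duplicate inside Abhd18 on the same strand, had 49, 21 and 37 counts in control and 41, 37 and 33 in cisplatin mice and was not called (log2 fold change -0.26, SE 0.260), while Abhd18 fell by 1.54. The ratio of the pair did not overlap between groups (exact permutation test p = 0.1). Gm7666, a copy of the prohibitin gene Phb1 inside the immune adaptor gene Fyb1 and sharing 231 exonic bases with it, fell by 1.22 (SE 0.231) beside 0.58 for Phb1, again without overlap of the ratio. Gm5526 stood at 0.43 (SE 0.291) beside -0.11 for Myl6, neither passing the test. In the other 36 close pairs the ratio overlapped between groups.

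Among pseudogenes that share a coding relative, single members moved in different directions. The Gvin family on chromosome 7 had 4 members, all single-exon copies of a very large interferon-inducible GTPase gene. The coding genes Gvin1 and Gvin2 rose by 0.76 (SE 0.177) and 0.79 (SE 0.171). Gvin4 had 348, 348 and 288 counts in control and 326, 271 and 269 in cisplatin mice, and its level fell from 15.1 ± 1.61 to 10.7 ± 1.41 CPM (log2 fold change -0.51, SE 0.127, adjusted p = 0.00739 by edgeR), a call that was lost on library totals (-0.08). Its ratio to Gvin1 does not depend on scaling and changed by -1.28 on the log2 scale without overlap (exact permutation test p = 0.1). Per kilobase Gvin4 had 2.08 CPM in control kidneys and Gvin1 0.194. Gvin4 aligned almost equally to Gvin1 (91.783%) and Gvin2 (91.77%), and pairs that fit several places were not counted. How many reads Gvin1 lost in that way was not tested, so the 2 levels cannot be compared directly.

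The member of that family with the fewest counts rose, as the coding genes Gvin1 and Gvin2 did. Gvin5 had 4, 6 and 8 counts in control and 44, 33 and 12 in cisplatin mice (log2 fold change 1.93, SE 0.457, adjusted p = 0.00546 by edgeR). Gvin3 was at 0.50 (SE 0.193, adjusted p = 0.0551) and Gvin-ps6 at -0.33 (SE 0.178, adjusted p = 0.154). Gvin4 and Gvin5 were thus called in opposite directions under TMM scaling.

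On chromosome 8, 6 members were fragments of Cdh11, the cadherin of mesenchymal cells, at 91.1% to 95.7% identity. Cdh11 rose by 1.64 (SE 0.152, adjusted p = 1.19e-05 by edgeR). The 6 copies ranged from 0.14 to 1.01, and 3 of them, 6820431F20Rik (0.65), Gm21092 (0.73) and Gm40466 (1.01), were called higher. The log2 fold change of each copy was below that of Cdh11, and the ratio did not overlap between groups in any of the 6 (exact permutation test p = 0.1 each). With DESeq2 none of the 3 was called. Leaving out control replicate 1, control replicate 2 or cisplatin replicate 1 also ended the call of 6820431F20Rik, and leaving out any library other than cisplatin replicate 3 that of Gm21092. In 4 of the copies only 0% to 28.5% of the windows are unique in the genome, while in Gm3365 98.8% and in Gm40466 100% are.

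A fragment of Cdk6 was held by 4 members, on chromosomes 10, 13 and 14. Gm21321 fell by 3.88 and Gm16505 by 0.75 (SE 0.252), Gm53218 rose by 0.68 (SE 0.245), and E030030I06Rik was not called (-0.66, SE 0.342). Gm53218 aligned to Cdk6 over 235 columns at 86.0% identity but to the gene Gm5799 over 195 columns at 98.5%, and 8.89% of its windows are unique, so its place in this group is uncertain. The calls of Gm16505 and Gm53218 were lost with DESeq2, and that of Gm16505 also on library totals (-0.32). Gm16505 was also not called without control replicate 1, control replicate 3 or cisplatin replicate 2, nor Gm53218 without control replicates 1 or 2 or cisplatin replicates 1 or 2. Gm53218 lies on chromosome 14 at 43108277, 47819 bases before Gm9732, the member with the largest rise.

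The phosphatidylserine decarboxylase gene Pisd, a mitochondrial enzyme of phospholipid synthesis, fell by 0.55 under TMM scaling (SE 0.107, adjusted p = 0.00162 by edgeR). Its copies Pisd-ps1 and Pisd-ps2 stood at 0.32 (SE 0.136, adjusted p = 0.0759) and 0.26 (SE 0.274, adjusted p = 0.454). The ratio of each to Pisd did not overlap between groups (exact permutation test p = 0.1). H2-K2, a relic of the class I histocompatibility gene H2-K1, had 21, 42 and 37 counts in control and 45, 56 and 34 in cisplatin mice (0.08, SE 0.285), beside a rise of 0.80 for H2-K1.

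**Figure D5:**
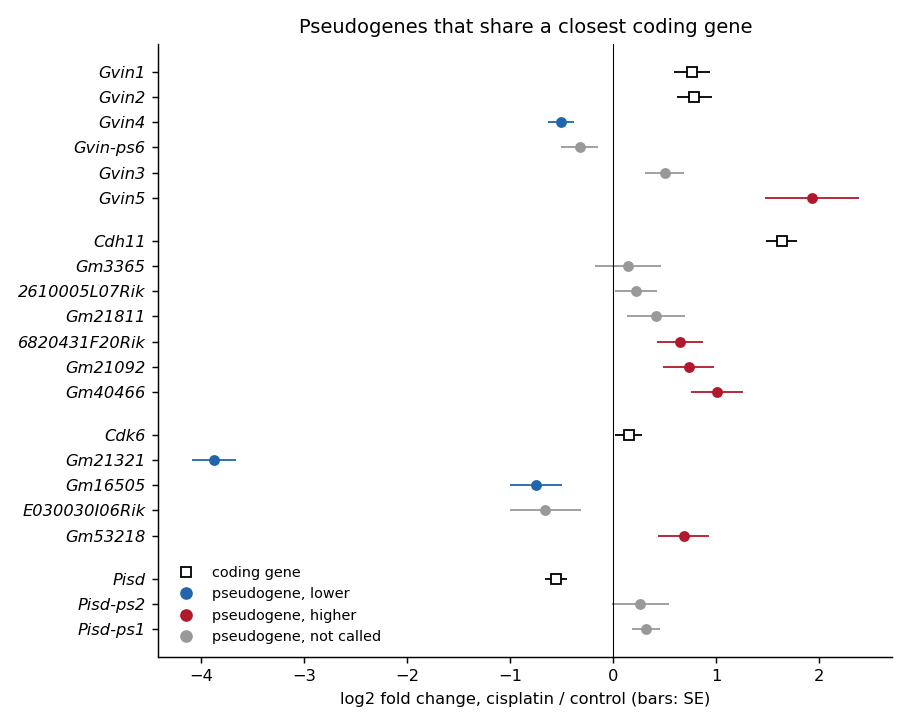
Log2 fold change with standard error of pseudogenes that share a closest coding gene (circles, coloured by call) and of the coding genes (open squares) for the Gvin, Cdh11, Cdk6 and Pisd groups. Gvin4 lies at -0.51 and Gvin5 at 1.93, the 6 Cdh11 copies lie between 0.14 and 1.01 with Cdh11 at 1.64, and Gm21321 at -3.88 stands apart from Cdk6 at 0.15.

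Several of the most abundant members did not pass the test. Ube2d-ps had 242, 230 and 195 counts in control and 250, 310 and 246 in cisplatin mice, and 4632415L05Rik 223, 192 and 213 against 285, 291 and 203, with log2 fold changes of -0.05 (SE 0.123) and -0.03 (SE 0.106). Tpt1-ps3, a copy of the translationally controlled tumour protein gene Tpt1, stood at 0.03 (SE 0.114) beside 0.09 for Tpt1. On library totals these 3 were called higher, at 0.37 for Ube2d-ps, 0.41 for 4632415L05Rik and 0.45 for Tpt1-ps3, so that the first 2 changed sign. Mfsd4b3-ps, a relative of a glucose transporter-like gene, was at -0.25 (SE 0.103, adjusted p = 0.0731). Of all 32 members whose symbol ends in -ps, 5 were lower, 4 higher and 23 not called, so that 28.1% were called beside 47.4% of all tested genes.

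At the edge of the abundance threshold, Gm14957 and Gm3365 had a total of 100 counts and Gm10060 of 101. Just below it were Rps3a3 with 96, Gm6483 with 95 and 4931440P22Rik with 94. In these 3 the CPM of each cisplatin library was above that of every control library, as in 4723 of all 15662 tested genes. By edgeR 4931440P22Rik was called higher (adjusted p = 0.0232), while Rps3a3 (adjusted p = 0.132) and Gm6483 (adjusted p = 0.0635) were not called.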

How the data were processed

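Total RNA libraries (QIAseq stranded kit) of 6 mouse kidneys, 3 control and 3 cisplatin, were used, with 1 count file each. Per the labels, reads were trimmed with cutadapt and aligned to mm39 with STAR by the authors. For the annotation release the sources used here give nothing. The deposited values are STAR read counts per gene, not normalized, in an unstranded and 2 stranded columns. The stranded column 4 was used, which held 96.7% to 97.2% of the strand-assigned pairs. STAR counts uniquely mapped pairs only and leaves out those that fit several places (11.5% to 12.9% of pairs) or overlap several genes (1.20% to 2.01%), so close copies lose reads.

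Gene types, exons and positions came from GENCODE release M39 on GRCm39, matched by Ensembl identifier (56017 of 56691 genes). The members and all lists were chosen with earlier results of these data known. Differences were tested with edgeR 4.0.16 (filterByExpr with a minimum count of 10 and a minimum total of 15, TMM factors, quasi-likelihood F-test, no covariate) over all 15662 genes passing the filter, with Benjamini-Hochberg adjustment and a threshold of 0.05. CPM were computed on effective library sizes. Closest coding genes were named from the symbol of -ps genes or by blastn 2.17.0 against GENCODE coding sequences, with at least 200 aligned bases and 80% identity. Uniqueness was the share of 100-base exonic windows found at 1 place in GRCm39. The scripts were tested on simulated data.

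Named members were the 10 with the highest mean CPM, the 10 largest rises and falls among called members without overlap, all unitary members, those with a -ps symbol, the 3 on either side of the threshold, and the closest coding genes of these. Other members named for a shared coding relative, a neighbour or a departure from it were chosen after their values were seen. Alternatives were DESeq2 1.42.0, other scalings and filters, unstranded counts, a replicate block, a stricter threshold, a minimum total of 1000 and leaving out each library. Replicate libraries differed by more than counting noise (chi-square per degree of freedom 4.96 to 40.5), so none was counted as a duplicate. The labels name each library only by group and number, so the p-values cover the spread between these 6 mice. With 3 libraries per group an exact permutation test cannot go below p = 0.1.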

Additional observations from a re-analysis of the deposited data

How the results depend on the processing

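Depth limits what these values show: the median member had a total of 233 counts, and a difference that missed the threshold may have been below what 3 libraries per group can resolve. The median fold change of all genes shifted from 0.05 to 0.48 (log2) when library totals replaced TMM factors. With library totals, 14 members were lower and 49 higher, beside 8.78% and 54.3% of all tested genes. The summed cisplatin level was then 0.973 times that of control against 0.725 with TMM. Ube2d-ps (0.37) and 4632415L05Rik (0.41) changed sign on library totals and were called higher. With a minimum total of 1000 counts 4 members were lower and 2 higher, as fewer members were counted. DESeq2 called 12 members higher, beside 9.63% of 30146 genes, and an adjusted p under 0.01 left 13 higher. The cause of the lower DESeq2 count was not tested. Without Gm6300 the summed level was 0.867 times that of control. The other alternatives (DESeq2 size factors, upper quartile, no filter, at least 10 counts in every library, unstranded counts) kept both counts within 1.5 times of 23 and 22. Leaving out 1 library gave 17 to 25 members lower, 14 (without control replicate 2) to 20 higher, a summed level of 0.709 to 0.739 times control, and a median difference between member and closest coding gene of 0.256 to 0.313, against 0.259 with all libraries. Over 61 named members and 14 alternatives, 2 values were reversed, 31 calls were lost, 22 were gained and 787 stayed, and 12 combinations gave no value because the member did not have 10 counts in every library.

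Same-numbered libraries of the groups correlated at 0.133, 0.142 and 0.0997 in their deviations from the group means. Libraries with different numbers correlated at -0.126 to -0.0259, so each correlated best with its own number. Deviations within a group cancel, so positive values are offset by negative ones. The labels name no pairing and the main fit used none, and whether the numbers mark a shared source was not tested. With the replicate number as a block, 24 members were lower and 21 higher, beside 24.2% and 26.1% of all tested genes.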

Other observations

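In a pair of members and their coding relatives, replicate 2 stood apart from replicates 1 and 3 in both groups, while replicates 1 and 3 kept no common order. Gm4735, a copy at 99.8% identity of the enolase retrogene Eno1b, had 125, 7 and 290 counts in control replicates 1, 2 and 3 and 356, 12 and 118 in cisplatin replicates 1, 2 and 3. Eno1b had 205, 10 and 388 counts and 501, 17 and 187 counts in the same libraries. Replicate 2 was thus the lowest library of both groups for both genes, while Eno1, the glycolytic enolase, was highest there, with 177 CPM in control and 181 CPM in cisplatin against 119 to 132 CPM in the other 4 libraries.

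The reverse order was seen in a zinc finger pair on chromosome 4. Znf41-ps had 5, 28 and 5 counts in the control and 17, 52 and 17 in the cisplatin libraries, and Zfp991, at 99.7% identity, had 3, 40 and 4 and 5, 60 and 23. Replicate 2 was the highest library of both groups for both genes. None of these genes passed the test between groups, and the standard errors of Gm4735 (0.918) and Znf41-ps (0.633) were the largest among the members.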
